A study of Mus musculus with 9 samples.

Results

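Transcripts of 8 lysosomal cathepsins (Ctsa, Ctsb, Ctsc, Ctsd, Ctsh, Ctsl, Ctss and Ctsz) and of cystatin C (Cst3) were examined in neutrophils sorted from mouse lung. The 9 genes were chosen by name, as cathepsins of myeloid lysosomes and the secreted inhibitor of the cysteine cathepsins. Earlier results of these data were known when the genes were chosen. All 9 were among the 22064 genes listed in the deposited tables, and all 9 were among the 14108 genes that passed the filter on low counts and were tested. Bulk RNA sequencing covered 9 libraries, with 3 in each of 3 groups. Ly6Ghi libraries held Ly6Ghigh neutrophils, sorted as CD45+ cells with high surface Ly6g, from lungs of BALB/c female mice at the macrometastatic (MACRO) stage after 4T1-LM3 cells had been placed in the mammary fat pad. Ly6Glow libraries held CD45+ cells with low surface Ly6g from lungs of the same kind of mouse, and NL libraries held Ly6Ghigh neutrophils from normal lungs of BALB/c female mice. 4T1-LM3 is a lung-tropic derivative of 4T1, a mouse mammary carcinoma line, so that the tumor-bearing groups stand on a single transplanted line. The study's methods put the mice at several weeks of age when purchased and the macrometastatic stage some weeks after injection, but neither their age at collection nor the use of single or pooled mice per library is given in the sources used here, and p-values measure only the spread between these libraries, which may be technical. The description fields of the NL libraries name the Ly6Ghigh group alone, so their placement in normal lung relies on the titles and treatment fields. No low-Ly6g group from normal lung is among the samples, so lung state could be compared only in Ly6Ghigh neutrophils.

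Cathepsins are proteases that break down protein inside lysosomes. They are made as inactive precursors, carried to the lysosome largely by mannose-6-phosphate receptors, and activated there by acid and by each other. Ctsd is an aspartic protease, Ctsb, Ctsc, Ctsh, Ctsl, Ctss and Ctsz are cysteine proteases, and Ctsa is a serine carboxypeptidase that also shields a sialidase and a galactosidase. In neutrophils Ctsc activates the serine proteases of the primary granules, and in antigen-presenting cells Ctss trims the invariant chain of MHC class II. Cst3 is secreted and blocks cysteine cathepsins outside the cell.

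Ctss had the lowest and Ctsd the highest log2 fold change of the 9 genes in both comparisons with NL. In Ly6Glow over Ly6Ghi, Ctss was again the lowest, but Ctsb was the highest. The bases upstream of the transcription starts of Ctss and Ctsd are given with their places in the genome. Both stretches come from RefSeq on GRCm38.p6 (the mm10 build that the submitters' processing notes name), and each is printed 5′ to 3′ on the gene's own strand. Capitals mark the E-box CACGTG, a palindrome that MiT/TFE factors of lysosomal genes can bind, and GAGGAA with its reverse complement TTCCTC, a core of sites for the myeloid factor PU.1. The letters were searched on both strands, and the motifs do not overlap each other.
Ctsd, chr7:142387828-142388077, minus strand: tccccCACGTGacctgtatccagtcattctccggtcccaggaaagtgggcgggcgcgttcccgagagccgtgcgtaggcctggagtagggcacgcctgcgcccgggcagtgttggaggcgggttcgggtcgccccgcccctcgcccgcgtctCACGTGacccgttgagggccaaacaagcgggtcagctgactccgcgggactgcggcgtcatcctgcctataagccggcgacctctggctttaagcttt
Ctss, chr3:95526536-95526785, plus strand: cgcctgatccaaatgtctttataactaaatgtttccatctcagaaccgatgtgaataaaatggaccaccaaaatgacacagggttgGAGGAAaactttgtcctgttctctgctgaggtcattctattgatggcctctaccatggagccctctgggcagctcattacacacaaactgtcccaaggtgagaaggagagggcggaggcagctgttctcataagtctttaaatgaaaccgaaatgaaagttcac
The Ctsd window held CACGTG at 245 and at 98 bases before the start and no GAGGAA. The Ctss window held GAGGAA at 164 bases before the start and no CACGTG. Of 32851 upstream windows of 250 bases in the same RefSeq table, 6.02% held CACGTG and 23.3% held GAGGAA on either strand. The table had 8 windows for 7 of the 9 genes (Ctsa with 2 starts) and none for Ctsb and Ctsh. CACGTG was found for 3 genes, Ctsd, Ctsa (12 bases before 1 of its starts) and Ctsl (236 bases before its start in the table). GAGGAA was also found for 3 genes, Ctss, Ctsc (196 and 149 bases) and Cst3 (230 bases), while Ctsz held neither. The listed starts of Ctsl and Ctsc and the second start of Ctsa lie inside the annotated span of the gene, so that all or part of those windows is within the gene. A match of letters is a description of the window and is no evidence that a factor binds there.

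Levels were read on 2 scales. CPM are estimated counts scaled to a common library size with edgeR's TMM factors, and FPKM are the deposited values per transcript length and sequencing depth. TMM factors were 0.945 to 0.95 in Ly6Ghi, 0.803 to 0.807 in Ly6Glow and 1.3 to 1.32 in NL libraries, so that the scales place NL differently against the other groups. The libraries held 15267177 to 17841807 estimated counts. The transcript of Ly6g, the surface protein used for sorting, reached 379.8, 361 and 380.1 CPM in Ly6Ghi, 385, 403 and 394 CPM in Ly6Glow and 120.2, 120.2 and 118 CPM in NL libraries. By CPM the Ly6Glow libraries lay slightly above the Ly6Ghi libraries without overlap (log2 fold change 0.076, edgeR adjusted p = 0.0577). On FPKM they lay below, at 358 to 373 against 396 to 417, and NL was lowest on both scales.

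Markers of neutrophils and of other lung cells were measured by lists. The summed level of 11 neutrophil markers was 91046 to 93385 CPM in Ly6Ghi, 83292 to 85184 CPM in Ly6Glow and 21136 to 21351 CPM in NL libraries, and none of the 11 was at 3 counts or fewer throughout a group. In Ly6Glow over Ly6Ghi, 4 of the 11 were called higher (Csf3r, Cxcr2, Mmp8 and Retnlg) and 2 lower (Camp and Ngp). The sum of 14 alveolar macrophage markers was 1253 to 1262 CPM in NL, 393 to 405 CPM in Ly6Ghi and 87.5 to 89 CPM in Ly6Glow. The sum of 14 markers of monocytes or other macrophages was 1409 to 1506 CPM in NL, 761 to 765 CPM in Ly6Ghi and 675 to 691 CPM in Ly6Glow. Neutrophil transcripts were thus least abundant, and macrophage transcripts most abundant, in NL. In the same order of groups (NL, Ly6Ghi, Ly6Glow), epithelial or tumor cell markers summed to 1213 to 1313, 116 to 123 and 119 to 124 CPM. Endothelial and fibroblast markers summed to 1126 to 1221, 160 to 169.7 and 191 to 204 CPM, and dendritic cell markers to 51.2 to 55.7, 18.2 to 20 and 18.1 to 19.1 CPM. Markers of T, B or NK cells summed to 75.6 to 76.4, 72.8 to 74 and 46.5 to 48.6 CPM. Of the 8 tested, 2 B cell genes (Cd79a and Ms4a1) were called higher in Ly6Ghi than in NL, and 4 (Cd3e, Cd8a, Cd4 and Klrb1c) lower. Eosinophil markers (40.6 to 43.3, 109.8 to 118 and 36.2 to 37.9 CPM) and basophil or mast cell markers (25.6 to 28.1, 40.2 to 42.2 and 22.5 to 26.9 CPM) were instead most abundant in Ly6Ghi. Siglecf is in both the eosinophil and the alveolar macrophage list. It made up most of the eosinophil sum in NL (37 to 40 CPM) and Ly6Glow (27.8 to 30.6 CPM). Of the 6 eosinophil genes, 5 were called higher in Ly6Ghi than in NL and 0 lower (Prg2 at a log2 fold change of 6.98). Gata2 made up most of the basophil or mast cell sum in NL (22.7 to 25.2 CPM). It was called lower in Ly6Ghi than in NL (-0.76), and 4 other genes of the list were called higher. Markers at 3 counts or fewer in every library of a group were Cidec and Trim29 (alveolar macrophage) and Ncr1 and Klrb1c (NK cell) in Ly6Glow, and Epx (eosinophil) in Ly6Glow and NL.

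**Figure D1:**
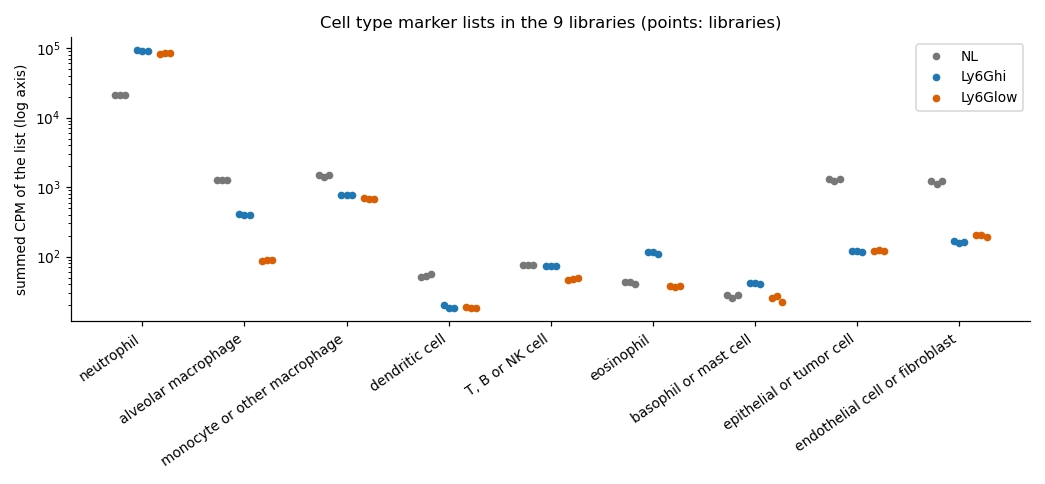
Summed CPM of each cell type marker list (log axis) in the 9 libraries, with 1 point per library, grey for NL, blue for Ly6Ghi and orange for Ly6Glow. Neutrophil markers were lowest and macrophage, epithelial, endothelial and fibroblast markers highest in NL, and alveolar macrophage markers ranged from 1253 CPM or more in NL to 89 CPM or less in Ly6Glow.

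Cathepsin D (Ctsd), the most abundant member, had 1987, 2028 and 1954 CPM in the Ly6Ghi libraries, 2755, 2844 and 2717 CPM in the Ly6Glow libraries and 1624, 1537 and 1636 CPM in the NL libraries. On this scale the 3 groups did not overlap, with Ly6Glow highest and NL lowest. In Ly6Glow over Ly6Ghi Ctsd differed by 0.48 on the log2 scale (SE 0.031, edgeR adjusted p = 1.23e-11), under the fold-change threshold of 0.58. Relative to NL, Ctsd was called higher in Ly6Glow (0.79, SE 0.031, edgeR adjusted p = 2.47e-16), and in Ly6Ghi the value was 0.32 (SE 0.031, edgeR adjusted p = 3.25e-09). On FPKM, Ly6Ghi lay below NL (log2 fold change -0.15, limma on log2(FPKM + 1)) and Ly6Glow above it by 0.093, short of the threshold. Ctsd (NCBI Gene 13033) lies on the minus strand at chr7:142375910-142387827. Of its annotated exonic bases, 34.4% are also exonic in Gm49369 on the same strand, a gene without a row in the deposited tables, and 32.4% of its 2349 annotated 50-base stretches occur in that gene too, so that reads from the shared stretches cannot be told apart.

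Cathepsin S (Ctss), a cysteine protease of antigen-presenting cells that stays active at neutral pH, showed the largest differences of the 9 genes in each comparison. Its CPM were 258, 248 and 255 in Ly6Ghi, 153, 155 and 159.9 in Ly6Glow and 627, 675 and 638 in NL libraries. NL lay far above both groups from macrometastatic lung, and Ly6Glow lay lowest. Ctss was called lower in Ly6Ghi than in NL (log2 fold change -1.35, SE 0.035, edgeR adjusted p = 2.63e-19), in Ly6Glow than in Ly6Ghi (-0.70, SE 0.038, edgeR adjusted p = 6.61e-13) and in Ly6Glow than in NL (-2.05, SE 0.037, edgeR adjusted p = 5.8e-22). At the same threshold, all 20 alternative scalings, filters, tools and sets of libraries kept each of these calls, with log2 fold changes between -1.81 and -1.31, between -0.93 and -0.63 and between -2.75 and -1.96. The gene (NCBI Gene 13040) spans chr3:95526786-95556405 on the plus strand, and none of its 1358 annotated 50-base stretches occurs in transcripts of another gene. Ctss followed the order of the summed alveolar macrophage and other macrophage markers, highest in NL and lowest in Ly6Glow, and their part in the result was not tested. Of the 14 alveolar macrophage markers, 11 were called lower in Ly6Glow than in Ly6Ghi, 12 in Ly6Ghi than in NL and 13 in Ly6Glow than in NL, with 0 called higher. Of the 14 markers of monocytes or other macrophages, 5, 9 and 10 were called lower in these comparisons, and 0, 2 and 1 higher. In bulk RNA, fewer cells of a type and less RNA per cell cannot be told apart.

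Cathepsin B (Ctsb), a lysosomal cysteine protease that can also act outside the lysosome, had 815, 829.8 and 825 CPM in Ly6Ghi, 1229, 1248 and 1194 CPM in Ly6Glow and 837, 788 and 827 CPM in NL libraries. Ly6Glow lay above the other groups, whose libraries overlapped. The log2 fold change came to 0.57 (SE 0.031, edgeR adjusted p = 7.68e-13) in Ly6Glow over Ly6Ghi, just short of the threshold, and 0.58 (SE 0.031, edgeR adjusted p = 7.93e-14) in Ly6Glow over NL, just past it. In Ly6Ghi over NL it was 0.01 (SE 0.031, edgeR adjusted p = 0.767). On FPKM both groups from macrometastatic lung lay below NL (-0.44 in Ly6Ghi and -0.10 in Ly6Glow), while Ly6Glow stayed above Ly6Ghi (0.34). The calls depended on the scaling and on single libraries. Ctsb was called higher in Ly6Glow than in Ly6Ghi with DESeq2's size factors (0.64) or without Ly6Glow replicate 3, and its call over NL was lost with upper-quartile normalization (0.39) or without Ly6Glow replicate 2 (0.57) or NL replicate 2 (0.56). The summed macrophage markers, whose order Ctss followed, were lowest in Ly6Glow, where Ctsb and Ctsd were highest by CPM. Of the 14 markers of monocytes or other macrophages, 1 (Csf1r, 0.46) was above 0 in Ly6Glow over Ly6Ghi. Csf1r had 290 to 308 CPM in Ly6Glow, 215 to 221 CPM in Ly6Ghi and 248 to 269 CPM in NL. The part of macrophages in the levels of Ctsb and Ctsd was not tested. Ctsb (NCBI Gene 13030, chr14:63122462-63145923, plus strand) overlaps Fdft1 on the other strand over 12.8% of its exonic bases. Fdft1 had at most 33.8 CPM in any library.

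Cathepsin L (Ctsl), a broad endopeptidase of the lysosome, had 139, 140.2 and 142 CPM in Ly6Ghi, 201, 193 and 194 CPM in Ly6Glow and 188, 199 and 194 CPM in NL libraries. Ly6Ghi was the low group, and Ly6Glow and NL overlapped. The log2 fold changes were 0.48 (SE 0.037, edgeR adjusted p = 2.43e-10) in Ly6Glow over Ly6Ghi, -0.47 (SE 0.036, edgeR adjusted p = 5.97e-11) in Ly6Ghi over NL and 0.015 (SE 0.035, edgeR adjusted p = 0.699) in Ly6Glow over NL, all short of the threshold. With FPKM the comparison of Ly6Glow with NL turned to -0.68, and that of Ly6Ghi with NL passed the threshold at -0.94. Ctsl (NCBI Gene 13039, chr13:64361890-64370772, minus strand) shares 6.46% of its 50-base stretches with transcripts of other genes, mostly the processed pseudogene Gm49230, and the antisense gene Gm47123 overlaps 26.8% of its exonic bases.

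Cathepsin H (Ctsh), an aminopeptidase, had 76.4, 75.1 and 76.8 CPM in Ly6Ghi, 48.7, 50.1 and 53.1 CPM in Ly6Glow and 84.9, 86.9 and 87.5 CPM in NL libraries. The groups did not overlap and kept the order seen for Ctss, with a smaller span. Ctsh was called lower in Ly6Glow than in Ly6Ghi (log2 fold change -0.59, SE 0.047, edgeR adjusted p = 4.73e-10) and than in NL (-0.77, SE 0.045, edgeR adjusted p = 4.69e-13). The value in Ly6Ghi over NL was -0.18 (SE 0.041, edgeR adjusted p = 0.000348). The call between the groups of macrometastatic lung was lost with DESeq2 (-0.52) and without Ly6Glow replicate 1 (-0.56), while that against NL held in all 20 alternatives. Ctsh (NCBI Gene 13036) lies at chr9:90054267-90076095 on the plus strand.

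Cathepsin C (Ctsc), the dipeptidyl peptidase that activates granule serine proteases, had 253, 262 and 261 CPM in Ly6Ghi, 206, 212 and 222 CPM in Ly6Glow and 289, 310.2 and 294 CPM in NL libraries. It too descended from NL through Ly6Ghi to Ly6Glow without overlap. The log2 fold changes were -0.28 (SE 0.038, edgeR adjusted p = 1.93e-06) in Ly6Glow over Ly6Ghi, -0.20 (SE 0.037, edgeR adjusted p = 2.81e-05) in Ly6Ghi over NL and -0.48 (SE 0.037, edgeR adjusted p = 7.47e-11) in Ly6Glow over NL. None passed the fold-change threshold with TMM, and both comparisons with NL passed it on FPKM (-0.68 and -1.24). Ly6Glow over NL also passed it with upper-quartile normalization (-0.67) and with at least 10 counts in every library (-0.66), and Ly6Glow over Ly6Ghi with log2(FPKM + 0.1) (-0.58). Ctsc (NCBI Gene 13032) lies at chr7:88278024-88315861 on the plus strand.

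Cathepsin Z (Ctsz), a carboxypeptidase, had 198, 207 and 203 CPM in Ly6Ghi, 238, 243 and 233 CPM in Ly6Glow and 287, 254 and 278 CPM in NL libraries. NL was highest and Ly6Ghi lowest, with no overlap. The value in Ly6Ghi over NL was -0.43 (SE 0.04, edgeR adjusted p = 1.91e-09) and that in Ly6Glow over NL was -0.20 (SE 0.04, edgeR adjusted p = 0.000112), both short of the threshold with TMM and past it on FPKM (-0.89 in each). In Ly6Glow over Ly6Ghi Ctsz differed by 0.23 (SE 0.042, edgeR adjusted p = 6.24e-05) with TMM and -0.0046 on FPKM, where the libraries overlapped. Ctsz (NCBI Gene 64138) lies at chr2:174427494-174439039 on the minus strand.

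Cathepsin A (Ctsa), the carboxypeptidase that protects the sialidase Neu1 and the galactosidase Glb1, had 232, 243 and 222 CPM in Ly6Ghi, 301, 317 and 294 CPM in Ly6Glow and 238, 198 and 218 CPM in NL libraries. Ly6Glow stood above the other groups, which overlapped. The log2 fold change came to 0.39 (SE 0.052, edgeR adjusted p = 1.21e-06) in Ly6Glow over Ly6Ghi, 0.092 (SE 0.051, edgeR adjusted p = 0.0977) in Ly6Ghi over NL and 0.48 (SE 0.051, edgeR adjusted p = 1.31e-08) in Ly6Glow over NL, and the values against NL turned to -0.36 and -0.21 on FPKM. Ctsa (NCBI Gene 19025, chr2:164832872-164841032, plus strand) overlaps Pltp on the other strand over 10.5% of its exonic bases and Neurl2 over 6.87%. Pltp had 151 to 175 CPM in NL against 22.6 to 23.1 CPM in Ly6Ghi and 18.1 to 20.8 CPM in Ly6Glow. The libraries are described as strand-specific, but whether strand was used in counting is not given in the sources used here, so the values of Ctsa in NL are uncertain to that extent.

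Cystatin C (Cst3), the inhibitor, had 228, 213 and 214 CPM in Ly6Ghi, 217, 219.7 and 203 CPM in Ly6Glow and 268, 235 and 262 CPM in NL libraries. The groups of macrometastatic lung overlapped and lay below NL. In Ly6Glow over Ly6Ghi the log2 difference was -0.033 (SE 0.047, edgeR adjusted p = 0.58), and it took the other sign with DESeq2's size factors (0.033). The values against NL were -0.23 (SE 0.045, edgeR adjusted p = 9.55e-05) in Ly6Ghi and -0.26 (SE 0.046, edgeR adjusted p = 2.22e-05) in Ly6Glow, short of the threshold with TMM and past it on FPKM (-0.69 and -0.95). Cst3 (NCBI Gene 13010) lies at chr2:148871722-148875512 on the minus strand.

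**Figure D2:**
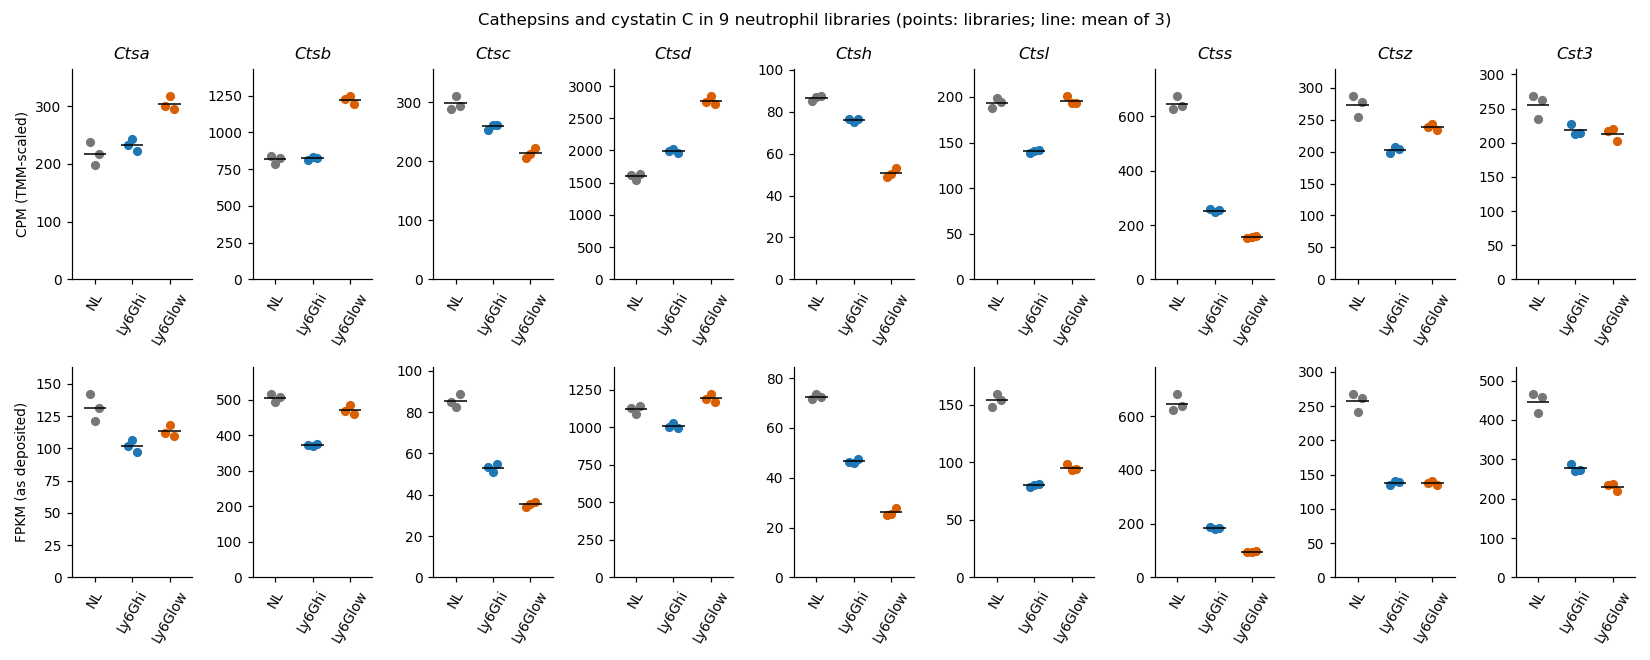
Level of each gene in each library as TMM-scaled CPM (upper row) and as deposited FPKM (lower row), with 1 point per library, a line at the mean of 3, and every axis starting at 0. The means of Ctsc, Ctsh, Ctss and Cst3 descend from NL through Ly6Ghi to Ly6Glow on both scales, whereas Ctsa, Ctsb, Ctsd, Ctsl and Ctsz take a different order of groups on the 2 scales.

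Counted over the members, 0 were called higher and 2 (Ctsh and Ctss) lower in Ly6Glow than in Ly6Ghi neutrophils by edgeR, where 9.29% of all tested genes were called higher and 15.9% lower. At an adjusted p of at most 0.05 without the fold-change threshold, 5 were higher (Ctsa, Ctsb, Ctsd, Ctsl and Ctsz) and 3 lower. Of the 14108 tested genes, 3686 were higher and 4182 lower at that setting. The libraries did not overlap in 8 of 9 members (all but Cst3), against 62.1% of tested genes. The median log2 fold change was 0.23 over the 9 members and -0.041 over all tested genes. Differences that exceeded the spread between replicates thus occurred in both directions, and the aspartic Ctsd, the serine Ctsa and the cysteine cathepsins Ctsb, Ctsl and Ctsz made up the higher side with TMM (Ctsz had the other sign on FPKM).

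In Ly6Ghi over NL neutrophils, which compares Ly6Ghigh cells of macrometastatic and normal lung, 0 members were called higher and 1 (Ctss) lower, against 26.3% and 36.6% of tested genes. The libraries did not overlap for 7 of 9 members (all but Ctsa and Ctsb), against 85.2% of tested genes. The median was -0.20 over the members and -0.088 over all tested genes. With TMM, the members other than Ctss lay between -0.47 (Ctsl) and 0.32 (Ctsd).

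In Ly6Glow over NL neutrophils, which differ in both sort and lung state, 2 members (Ctsb and Ctsd) were called higher and 2 (Ctsh and Ctss) lower, against 28.7% and 40.8% of tested genes. The libraries did not overlap for 8 of 9 members (all but Ctsl), against 86.8% of tested genes, and the medians were -0.20 and -0.16. The comparisons share libraries, so their values are given side by side and were not set against each other as independent results.

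Which members counted as higher depended on the scaling. Upper-quartile normalization moved the median of all tested genes from -0.088 to -0.28 in Ly6Ghi over NL and from -0.16 to -0.35 in Ly6Glow over NL. With limma on log2(FPKM + 1), these medians were -0.32 and -0.49, and that of Ly6Glow over Ly6Ghi was -0.13 in place of -0.041. The called genes split into 1429 higher and 5134 lower on FPKM in Ly6Ghi over NL, in place of 3712 and 5162 with TMM. For Ly6Glow over NL the split was 1125 and 6438, in place of 4049 and 5760. For Ly6Glow over Ly6Ghi it was 320 and 1923, in place of 1310 and 2250. Values were therefore also taken relative to the median of all tested genes. In Ly6Glow over NL, Ctsd stood 0.95 above that median with TMM and 0.58 above it on FPKM, and Ctsb stood 0.74 and 0.39 above it. Ctss stood below it by a change of -1.89 with TMM and -2.25 on FPKM, and Ctsh by -0.61 and -0.95. Relative to the median in Ly6Glow over NL, Ctsa, Ctsb and Ctsd thus stayed on the upper side and Ctsc, Ctsh, Ctss, Ctsz and Cst3 on the lower side on both scales, and only Ctsl changed side (0.17 and -0.19).

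**Figure D3:**
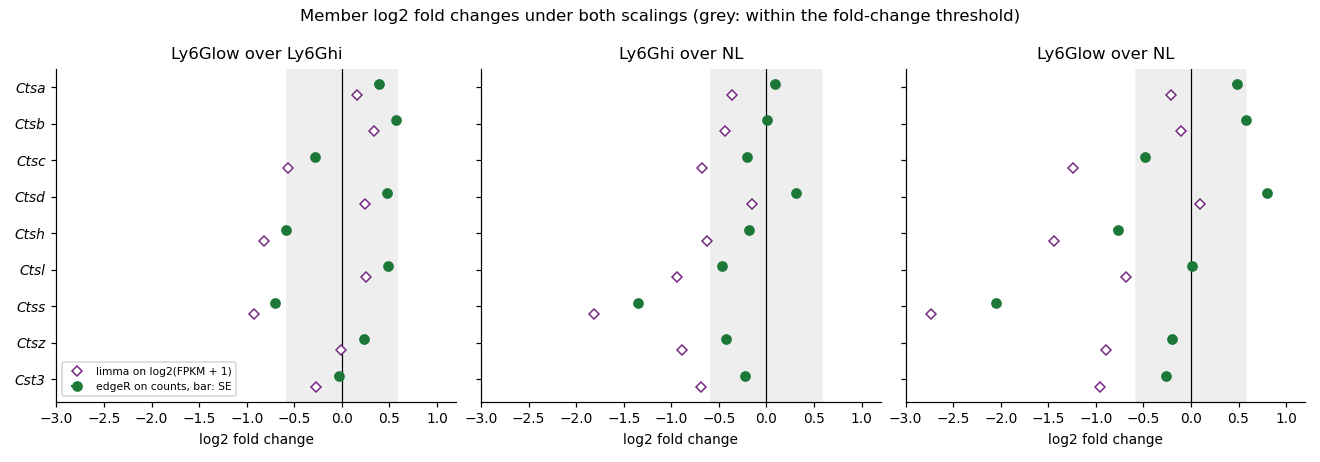
Log2 fold change of each member in the 3 comparisons, as fitted by edgeR on counts (filled circles, with bars of 1 SE that are mostly narrower than the symbol) and by limma on log2(FPKM + 1) (open diamonds), with the range inside the fold-change threshold of 0.58 in grey. Every diamond lies to the left of its circle, and Ctss lies outside the grey range in all 3 panels on both scales.

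Between genes, levels were compared on FPKM, which account for transcript length. Ctsd was the most abundant member in each group, at 1119.6 ± 28.5 FPKM in NL, 1009.8 ± 18.8 in Ly6Ghi and 1194 ± 25.4 in Ly6Glow (SD, n = 3). Ctss ranked next in NL, with 647 ± 31.5 FPKM, ahead of Ctsb (506), Cst3 (447), Ctsz (257), Ctsl (154), Ctsa (131), Ctsc (85.3) and Ctsh (72.5). In Ly6Ghi the mean FPKM ran from Ctsb (373) through Cst3 (277), Ctss (184), Ctsz (138), Ctsa (102), Ctsl (79.9) and Ctsc (53.05) to Ctsh (46.6). In Ly6Glow they ran from Ctsb (471) through Cst3 (229.8), Ctsz (138), Ctsa (113), Ctss (96.3), Ctsl (95.3) and Ctsc (35.4) to Ctsh (26.1). Ctss moved down from the rank after Ctsd to a level shared with Ctsl in Ly6Glow, the only neighbours in any of these orders whose libraries overlapped. Ctsh closed the order in every group.

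Ratios within a library do not depend on the library scaling. Ctsd FPKM per Ctss FPKM was 1.81, 1.59 and 1.8 in the NL libraries, 5.39, 5.73 and 5.36 in Ly6Ghi and 12.6, 12.8 and 11.9 in Ly6Glow. The groups did not overlap, and the mean went from 1.73 ± 0.121 through 5.49 ± 0.206 to 12.4 ± 0.48 (SD, n = 3). With 3 libraries a group, the smallest p of a two-sided exact permutation test is 0.1, so no p is attached to these ratios. Of the summed FPKM of the 8 cathepsins, Ctss held 21.8% ± 1.24 in NL, 9.26% ± 0.257 in Ly6Ghi and 4.44% ± 0.164 in Ly6Glow. Ctsd held 37.7% ± 0.615, 50.8% ± 0.526 and 55.04% ± 0.126, and Ctsb held 17.03% ± 0.282, 18.8% ± 0.289 and 21.7% ± 0.179 (SD, n = 3 in each group). The sum of these 8 cathepsins thus held a larger share of Ctsd and Ctsb and a smaller share of Ctss in Ly6Ghi than in NL, and again in Ly6Glow than in Ly6Ghi. Such ratios and shares do depend on the mix of cells in a library. The summed macrophage markers also descended from NL through Ly6Ghi to Ly6Glow, and the part of the mix in these values was not tested. Ctsh held 2.44%, 2.35% and 1.2% of the same sum, so that Ctsb FPKM per Ctsh FPKM was 6.98 ± 0.259 in NL, 8.01 ± 0.0546 in Ly6Ghi and 18.1 ± 1.34 in Ly6Glow.

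The ratio of the cysteine cathepsins to Cst3 differed less between groups than the ratio of Ctsd to Ctss. The summed FPKM of Ctsb, Ctsc, Ctsh, Ctsl, Ctss and Ctsz per Cst3 FPKM was 3.86 ± 0.26 in NL, 3.16 ± 0.119 in Ly6Ghi and 3.76 ± 0.125 in Ly6Glow (SD, n = 3). Ly6Ghi was the low group, and NL and Ly6Glow overlapped. These are ratios of transcripts, and neither protein nor enzyme activity was measured in these libraries. Other inhibitors of cysteine cathepsins, the stefins described below, are not part of this ratio. Stfa2 had means of 362 FPKM in NL, 3243 in Ly6Ghi and 3445 in Ly6Glow, and Cstb went the other way against NL (116, 83.2 and 97.3). The values therefore describe Cst3 alone and not the whole set of inhibitors.

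**Figure D4:**
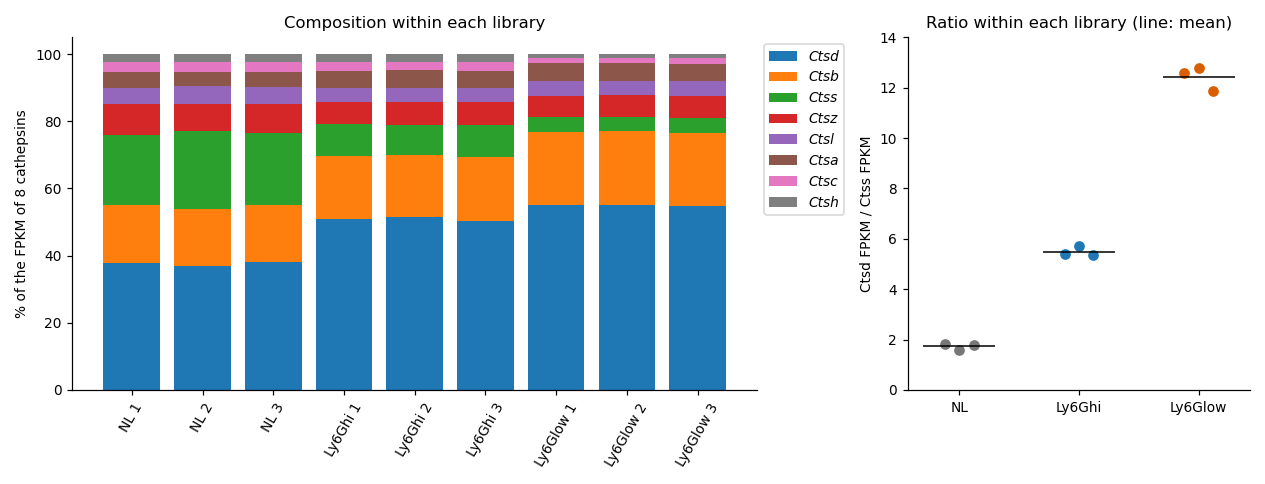
Left, the share of each cathepsin in the summed FPKM of the 8 cathepsins, stacked for each of the 9 libraries; right, the ratio of Ctsd to Ctss FPKM in each library, with a line at the mean of 3. The mean share of Ctss is 21.8% in NL and 4.44% in Ly6Glow, and the mean ratio is 1.73 and 12.4, with no overlap between groups.

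The members did not follow a single pattern over the 9 libraries. Likeness was measured as the root mean square difference of mean-centred log2 CPM, where 0 means the same profile. Ctsa and Ctsb were the most alike pair of members (0.0915), and Ctsz and Cst3 came next (0.121). Ctsd and Ctss were the least alike (1.17). Among all other tested genes, the gene nearest to Ctsz was Tpp1 (0.0275), another lysosomal peptidase, followed by Osm (0.0466), a cytokine. The nearest to Ctsd were Csnk1e (0.0296) and Myo9b (0.0325), and the nearest to Ctsb were Oas3 (0.0289) and Jaml (0.0315). Ctsl lay closest to Sp140 (0.0352), a nuclear body protein. Uba7 (0.0379) and Gsn (0.0513) were nearest to Ctsa, Serbp1 (0.0437) and Elovl5 (0.0466) to Ctsc, Gatm (0.0367) and Cct5 (0.0519) to Ctsh, and Zmiz1 (0.0449) and Tsc2 (0.0485) to Cst3. Ctss had the most distant neighbours, Slc39a10 (0.0572) and Sil1 (0.0748). With 3 groups and tight replicates, such a likeness reflects mainly the order and spacing of the group means.

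Lists of related genes were described by their calls with TMM. None of the genes called in these lists changed sign with DESeq2's size factors, upper-quartile normalization or FPKM. The remaining cathepsins were split in direction. Of 7 tested, edgeR called 3 lower in Ly6Glow than in Ly6Ghi and, against NL, 3 higher and 4 lower in each of Ly6Ghi and Ly6Glow. Ctsk, the collagen-degrading cathepsin of osteoclasts and macrophages, had 101 to 108 CPM in NL, 14.5 to 15.8 CPM in Ly6Ghi and 2.44 to 2.86 CPM in Ly6Glow. It was called lower in Ly6Glow than in Ly6Ghi (log2 fold change -2.54) as well as in both groups than in NL (-2.76 and -5.31). It thus followed the order of Ctss over a far wider range, alongside the alveolar macrophage markers. Ctsf (-1.84, -2.47 and -4.30 in Ly6Glow over Ly6Ghi, Ly6Ghi over NL and Ly6Glow over NL) was lower in the same 3 comparisons. Ctso (-1.03 and -1.23) and Ctsw (-1.11 and -1.54), a cathepsin of cytotoxic lymphocytes, were lower than NL in both groups. Ctse, an endosomal aspartic protease, had a mean of 111 CPM in NL, 242 CPM in Ly6Ghi and 289 CPM in Ly6Glow and was called higher in both groups than in NL (1.13 and 1.38). Napsa, the related aspartic protease napsin A, was also called higher (1.05 and 1.04). On FPKM, Ctse kept both calls and Napsa neither (0.58 and 0.33). Ctsg, a serine protease of primary granules despite its name, was called lower in Ly6Glow than in Ly6Ghi (-2.02) and higher in both groups than in NL, with means of 0.12 CPM in NL, 3.37 CPM in Ly6Ghi and 0.827 CPM in Ly6Glow that rest on 2 to 4 counts in each NL library. On FPKM its call in Ly6Glow over NL was lost (0.54).

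Other inhibitors of cysteine cathepsins and their relatives were measured beside Cst3. Of 18 cystatins, stefins and relatives listed, 7 were expressed enough to be tested, and edgeR called 6 of them higher and 0 lower in each group than in NL. Stfa2, the most abundant, had means of 104 CPM in NL, 1279 CPM in Ly6Ghi and 1601 CPM in Ly6Glow (log2 fold changes of 3.63 and 3.95 against NL). Stfa2l1 (2.33 and 2.72) and Stfa3 (4.15 and 4.27) were also called higher than in NL in both groups. These stefin A genes are near-identical copies in a cluster, so the division of reads among them is uncertain. Cstb, stefin B, had means of 48.9 CPM in NL, 48.5 CPM in Ly6Ghi and 66.8 CPM in Ly6Glow and was not called in any comparison. Csta2, Csta3 and Cst7 completed the 6, and on FPKM Cst7 was not called in Ly6Glow over NL (0.17). In Ly6Glow over Ly6Ghi, 2 were called higher (Csta2 at 0.89 and Csta3 at 0.66, the latter not on FPKM) and 0 lower.

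Of 9 other lysosomal peptidases and partners, 6 were called lower and 0 higher in Ly6Glow than in Ly6Ghi. Lgmn, legumain, which processes cathepsin precursors, had 122, 114 and 121 CPM in NL, 45.3, 47.7 and 44 CPM in Ly6Ghi and 28.8, 31.1 and 28.4 CPM in Ly6Glow. Its log2 fold changes (-0.63 in Ly6Glow over Ly6Ghi, -1.38 in Ly6Ghi over NL and -2.01 in Ly6Glow over NL) were each called and lay close to those of Ctss, but the first call was lost with DESeq2's size factors (-0.57). Dpp7 (-0.63), Scpep1 (-0.92), Prcp (-0.82), Glb1 (-0.93) and Galns (-0.72) were the other genes called lower in Ly6Glow than in Ly6Ghi. Of the 6 calls, 4 were left with DESeq2's size factors, where Dpp7 was at -0.56, and Dpp7 also lost its call on FPKM (-0.55). Against NL, 2 were called higher and 4 lower in Ly6Ghi, and 1 higher and 5 lower in Ly6Glow. Neu1, the sialidase held in a complex with Ctsa, was called higher in both groups (0.69 and 0.87), though not on FPKM (0.22 and 0.16), and in Ly6Ghi not with upper-quartile normalization (0.50). Galns, a sulfatase, was called higher in Ly6Ghi than in NL (1.14) and had 0.42 in Ly6Glow. The galactosidase of the complex, Glb1, was called lower than NL in Ly6Glow (-1.45) and had -0.52 in Ly6Ghi, where it was called with upper-quartile normalization (-0.71) and on FPKM (-0.86). Psap, the saposin precursor, had 1812 to 2279 CPM as group means and was not called with TMM, nor was Tpp1. On FPKM both were called lower than NL in both groups.

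Of 10 genes of mannose-6-phosphate tagging and lysosomal sorting, 1 (Nagpa, -0.69) was called lower and 0 higher in Ly6Glow than in Ly6Ghi. Against NL, Gga1 (0.63 in Ly6Ghi and 0.70 in Ly6Glow) and Gga3 (0.74 and 0.81), adaptors for sorting receptors, were called higher. Gga2 (-1.60 and -1.88), the tagging enzyme subunit Gnptab (-0.97 and -1.24) and Nagpa (-0.70 and -1.39) were called lower in both groups. The receptors M6pr, Igf2r and Sort1, with Gnptg and Scarb2, were not called in any of the 3 comparisons with TMM. On FPKM the higher calls of Gga1 and Gga3 were lost, and M6pr and Scarb2 were called lower than NL in both groups. Sort1 was called lower on FPKM in Ly6Glow than in Ly6Ghi (-0.69) and than in NL (-1.18). Upper-quartile normalization also left Gga1 uncalled in both groups and Gga3 in Ly6Ghi, and called M6pr lower than NL in both. Of 12 lysosomal membrane genes, 1 (Lamp2, 0.76) was called higher and 0 lower in Ly6Glow than in Ly6Ghi. Against NL, 1 was called higher (Ctns, 1.59) and 2 lower (Cd68, -0.59, and Mcoln1, -0.71) in Ly6Ghi. In Ly6Glow, 2 were higher (Ctns, 2.13, and Lamp2, 0.98) and 2 lower (Lamp1, -0.59, and Mcoln1, -0.77). Laptm5, the most abundant of the list, was called in no comparison. The list had medians of 0.098, 0.11 and 0.063 in Ly6Glow over Ly6Ghi, Ly6Ghi over NL and Ly6Glow over NL, and of -0.16, -0.31 and -0.59 on FPKM, where Lamp2 lost its calls. With DESeq2's size factors the lower calls of Cd68 (-0.56) and Lamp1 (-0.50) were lost. With upper-quartile normalization the medians against NL were -0.079 and -0.13.

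Of the 4 MiT/TFE factors, which can drive lysosomal genes through the E-box shown above, Tfeb (0.97 and 0.86) and Tfe3 (0.73 and 1.26) were called higher in Ly6Ghi and Ly6Glow than in NL, though short of the threshold on FPKM (0.48 and 0.16 for Tfeb, 0.25 and 0.55 for Tfe3). Mitf was called lower in Ly6Ghi than in NL (-0.74), and Tfec was called lower in Ly6Glow than in Ly6Ghi (-1.28) and than in NL (-1.68). Tfe3 had means of 94.9 CPM in NL, 157 CPM in Ly6Ghi and 228 CPM in Ly6Glow, and with DESeq2's size factors it was also called higher in Ly6Glow than in Ly6Ghi (0.60). Of the 3 members with an E-box in the window, Ctsd was called higher in 1 comparison (Ly6Glow over NL), and Ctsa and Ctsl were called in none.

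The serine proteases that Ctsc activates differed more widely between the groups than Ctsc did. Of 6 listed, which include Ctsg, 5 were called lower and 0 higher in Ly6Glow than in Ly6Ghi, and 4 higher and 2 lower in each group than in NL. Prtn3, proteinase 3, had means of 0.737 CPM in NL, 36.1 CPM in Ly6Ghi and 7.61 CPM in Ly6Glow (log2 fold changes of -2.25 in Ly6Glow over Ly6Ghi, 5.60 in Ly6Ghi over NL and 3.35 in Ly6Glow over NL). Elane, neutrophil elastase, was called in the same directions (-2.83, 4.74 and 1.91), from 5 to 9 counts in each NL library. On FPKM 2 of the 6 were called higher in Ly6Glow than in NL, and Elane (0.52) and Ctsg were not. Prss57 was called higher than NL in both groups (2.34 and 1.96). The granzymes Gzma (-1.26, -0.77 and -2.02) and Gzmb (-0.77, -0.97 and -1.74), which belong to cytotoxic lymphocytes, were the 2 that were lower than NL. With TMM, Ctsc itself was not called in any of the 3 comparisons.

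The MHC class II genes, whose invariant chain is the substrate of Ctss, were called lower or not called. Of 9 tested, 6 were called lower in Ly6Glow than in Ly6Ghi, 7 in Ly6Ghi than in NL and 8 in Ly6Glow than in NL, with 0 called higher. With DESeq2's size factors 5 were called lower in Ly6Glow than in Ly6Ghi, and on FPKM 8, 8 and 9 in the 3 comparisons. Cd74, the invariant chain, had 1003, 843 and 957 CPM in NL, 353, 352 and 337 CPM in Ly6Ghi and 200.4, 216 and 201 CPM in Ly6Glow. Its log2 fold changes were -0.75, -1.43 and -2.18 in Ly6Glow over Ly6Ghi, Ly6Ghi over NL and Ly6Glow over NL, beside -0.70, -1.35 and -2.05 for Ctss. H2-Aa (-0.64, -1.25 and -1.89), H2-Ab1 (-0.77, -1.47 and -2.24), H2-Eb1 (-0.73, -1.39 and -2.13) and H2-DMb1 (-1.38, -1.09 and -2.47) were called lower in the same 3 comparisons, except that H2-Aa in Ly6Glow over Ly6Ghi fell short with DESeq2's size factors (-0.58). H2-DMa and the transactivator Ciita were called lower than NL in both groups, while Ifi30, a lysosomal thiol reductase, was called lower in Ly6Glow than in Ly6Ghi (-0.75) and than in NL (-1.15). H2-DMb2 was not called with TMM. These genes and Ctss are also expressed by macrophages and dendritic cells, whose markers summed highest in NL, and their part in the result was not tested.

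**Figure D5:**
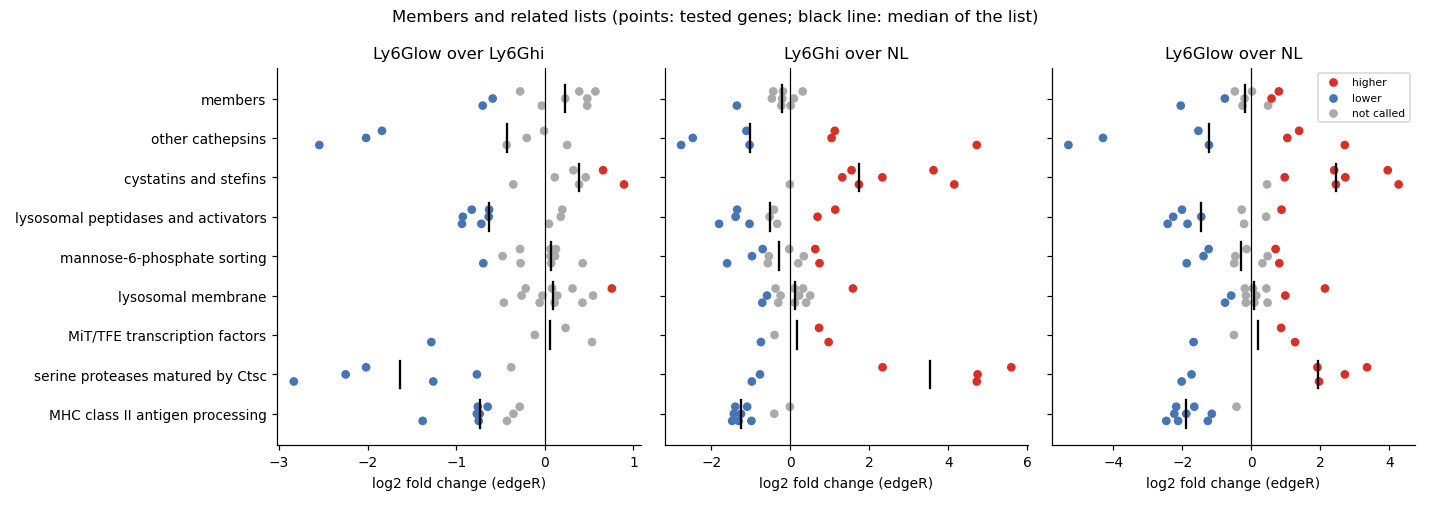
Log2 fold change (edgeR) of each tested gene of the members and of 8 related lists in the 3 comparisons, with genes called higher in red, called lower in blue and not called in grey, and a black line at the median of each list. Ctss is the member farthest from 0 in each panel, MHC class II genes lie to the left apart from H2-DMb2 in Ly6Ghi over NL (-0.0083), and the horizontal ranges differ between panels.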

How the data were processed

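RNA of sorted lung neutrophils was measured in 9 poly(A) libraries, described as strand-specific in the labels; the labels name Illumina sequencing and the study's methods BGI. The authors deposited estimated counts per gene without normalization, of which 37.9% were whole numbers, and FPKM values scaled for transcript length and depth. The aligner and counting program are not given in the sources used here, and the submitters' processing notes name the build mm10. Of 22064 genes, 3739 were blank and 18325 had values. Estimated counts were rounded and compared in R 4.3.3 with edgeR 4.0.16 (filterByExpr by group, TMM, quasi-likelihood F tests in a single model of the 9 libraries, no block), with p-values adjusted by Benjamini-Hochberg over 14108 genes. Calls required an adjusted p no higher than 0.05 and a log2 fold change beyond 0.58 in either direction. The SE was the log2 fold change divided by the square root of F. The biological coefficient of variation was 0.0346. The fit was tested on simulated data.

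The members and lists were chosen with earlier results of these data known. Named genes were the 9 members, the 2 tested genes nearest to each in profile, all genes of lists of up to 10, the 4 most abundant of longer lists, and Ly6g. Csta2, Csta3, Cst7, Ctns and Mcoln1, which made up small counts, were named after their values were seen. The second gene nearest to Ctsl is not reported here. Alternatives were other scalings and filters, DESeq2 1.42.0, limma 3.58.1 on log2 FPKM (pseudocount 1 or 0.1), other thresholds, a replicate block and leaving out each library. Positions, upstream windows and shared 50-base stretches came from RefSeq and GENCODE M21 on GRCm38. Proteins were not analysed here.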

Additional observations from a re-analysis of the deposited data

How the results depend on the processing

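Of the member log2 fold changes under alternative settings, 465 kept their direction and side of the threshold, 34 gained and 10 lost a call, and 31 changed sign. Sign changes with limma on FPKM, over the settings log2(FPKM + 1), log2(FPKM + 0.1) and an FPKM of at least 1 in 3 libraries, concerned Ctsa in Ly6Ghi over NL (-0.36, -0.37 and -0.36) and in Ly6Glow over NL (-0.21), Ctsb in the same comparisons (-0.44 and -0.10), Ctsd in Ly6Ghi over NL (-0.15), Ctsl in Ly6Glow over NL (-0.68, -0.69 and -0.68) and Ctsz in Ly6Glow over Ly6Ghi (-0.0046 or -0.0047). With upper-quartile normalization and with at least 10 counts in every library, the values turned for Ctsa (-0.099 and -0.081) and Ctsb (-0.18 and -0.16) in Ly6Ghi over NL and for Ctsl in Ly6Glow over NL (-0.18 and -0.17). Cst3 in Ly6Glow over Ly6Ghi turned to 0.033 with DESeq2's size factors and with DESeq2. Leaving out 1 library gave -0.011 (without NL replicate 2) to 0.028 for Ctsb in Ly6Ghi over NL and -0.011 (without NL replicate 1) to 0.036 for Ctsl in Ly6Glow over NL. The cause was not tested.

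Counts of members called also moved. In Ly6Glow over Ly6Ghi, DESeq2's size factors and DESeq2 gave 1 higher and 1 lower, no fold-change threshold gave 5 higher, and a threshold of 1 gave 0 lower. Of 14108 tested genes, these settings in turn called 1627, 1508, 3686 and 342 higher and 1967, 1800, 4182 and 963 lower. Leaving out a library gave 0 to 1 higher (1 without Ly6Glow replicate 3) and 1 to 2 lower (1 without Ly6Glow replicate 1). Without Ly6Glow replicate 3, 1217 of 14402 tested genes were called higher, and without Ly6Glow replicate 1, 2201 of 14403 lower. In Ly6Ghi over NL, no threshold gave 1 higher, upper-quartile normalization and at least 10 counts gave 3 lower, and no threshold and the 3 FPKM settings gave 6 lower. Over all tested genes, no threshold gave 5629 higher and 6301 lower of 14108, and upper-quartile normalization 5755 lower. With at least 10 counts 3547 of 11328 were lower, and on the FPKM settings 5134 and 6683 of 14108 and 4652 of 11820. In Ly6Glow over NL, upper-quartile normalization and at least 10 counts gave 1 higher and 3 lower, a threshold of 1 and the FPKM settings 0 higher, no threshold 5 lower, a threshold of 1 gave 1 lower and the FPKM settings 6 lower. Over all 14108 tested genes, upper-quartile normalization gave 3194 higher and 6289 lower, a threshold of 1 2285 and 4800, and no threshold 6655 lower. At least 10 counts gave 3075 higher and 4055 lower of 11328. The FPKM settings gave 1125 and 1328 higher and 6438 and 7891 lower of 14108, and 1120 and 5845 of 11820. Leaving out a library gave 1 to 2 higher there (1 without Ly6Glow replicate 2 or NL replicate 2). Without these libraries 4046 of 14405 and 4054 of 14246 tested genes were called higher.

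Whether a replicate number marks a shared mouse or day is not given in the sources used here. Deviations from the group means correlated between -0.068 and 0.077 for libraries of the same number and between -0.100 and 0.139 for others. With 3 libraries a group and a spread that may be technical, these correlations cannot show whether the libraries were paired. A replicate block left every count of members called as it was (0 and 2, 0 and 1, 2 and 2 higher and lower), with 1294 and 2228 tested genes called in Ly6Glow over Ly6Ghi in place of 1310 and 2250. With 3 libraries a group and no library of low-Ly6g cells from normal lung, sort and lung state were compared only along these 3 contrasts, and the tight replicates limit the values less than the choice of scaling does.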
